A study of Mus musculus with 6 samples.

Results

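The genes described here encode the eukaryotic translation initiation factors, whose symbols begin with Eif1 to Eif6, and the related ABC proteins Abcf1, Abcf2 and Abcf3. Eif4h and the Eif2ak and Eif4ebp genes were left out of this set by its rule and are treated as neighbours of the pathway. Of 46 such genes with a named probe on the array, 35 had a probe above background in at least 3 of 6 arrays and were tested, among 7225 genes tested in all. The RNA came from Wehi-231, a line established from a B cell lymphoma of a (BALB/c x NZB)F1 mouse and grown here in DMEM with 10% FBS. One group of 3 arrays came from cells labelled shTFII-I, after a short hairpin RNA named for the transcription factor TFII-I, the product of Gtf2i, and the other 3 arrays came from cells labelled shCT. The labels do not say how the hairpins were delivered, whether a line was 1 clone, or whether replicates were separate cultures, so each p-value speaks only of the scatter among these 6 arrays, part or all of which could be technical.

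Translation of most messenger RNAs starts when a small ribosomal subunit, loaded with initiator tRNA, is brought to the capped end of the message and scans to a start codon. The factor eIF2 delivers the initiator tRNA and is recharged with GTP by eIF2B, eIF3 is the large scaffold on the small subunit, and eIF4F (the cap-binding protein eIF4E, the helicase eIF4A and the scaffold eIF4G) prepares the message. ABCF1, also called ABC50, binds ribosomes and eIF2, and it is an ABC protein without membrane-spanning segments. In B cells the demand for protein synthesis grows on activation, and much of its control acts on eIF2 and on the cap-binding complex.

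The arrays were Illumina bead arrays hybridised with biotin-labelled cRNA, and the deposited values are log2 intensities. A probe counted as above background where it exceeded an estimated level of 6.61 on the log2 scale, and each gene was represented by its brightest such probe unless said otherwise. Each difference below is on the log2 scale, the mean of shTFII-I less that of shCT, and carries limma's standard error (SE). How bright a probe is depends on its sequence, so levels are not set against each other between genes. The only probe named for Gtf2i was above background in 0 of 6 arrays and gave no check of the knockdown. Of 8 B cell marker genes on the array 7 were tested, with shCT means from 6.58 for Pax5, which is near background, to 10.68 for Cd79b, and Ms4a1 was above background in only 2 arrays. None of 6 T cell markers was tested (0 genes), and the 4 tested markers of myeloid, erythroid and fibroblast cells had shCT means of 6.55 to 6.60.

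None of the initiation factor or Abcf genes passed limma's test, with 0 of 35 at an adjusted p under 0.05 (Benjamini-Hochberg over all genes), where 0.0% of all genes passed. The clearest separation was that of Abcf1, which was lower in shTFII-I cells, followed by 3 subunits of eIF3 (Eif3l, Eif3c and Eif3b) and the eIF4E-binding protein gene Eif4enif1, all higher. These 5 genes, 14.3% of the 35, had an unadjusted p under 0.05 in limma, against 6.63% of all genes tested. Of these, 4 were higher, where 3.09% of all genes were called, and 1 was lower, where 3.54% were. The groups of arrays did not overlap in 4 of the 35 genes, or 11.4%, against 11.9% of all genes, which is near the background. In the mean, 22 of the 35 genes (62.9%, against 50.0% of all genes) were lower and 13 higher in shTFII-I cells, with a median difference of -0.07 against 0.00 over all genes. The count of 5 rested partly on single arrays: without the third shCT array only Abcf1 remained at an unadjusted p under 0.05 (1 gene), and without the second shTFII-I array the count was 3. It was 2 with limma's array weights and 2 with the mean of each gene's probes.

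**Figure D1:**
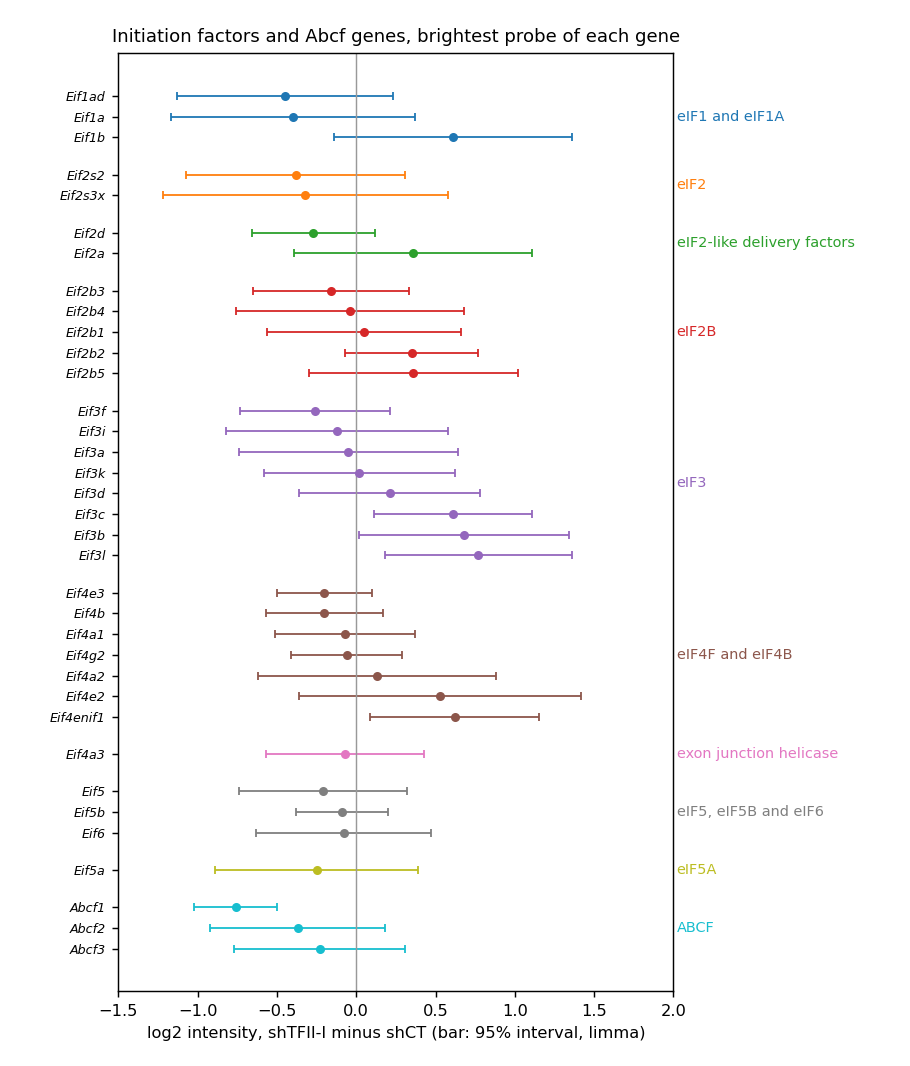
Difference in log2 intensity (horizontal axis, shTFII-I minus shCT) for the brightest probe of each of the 35 genes, grouped by factor, with limma's 95% interval as the bar. The intervals of Abcf1, Eif3l, Eif3c, Eif3b and Eif4enif1 leave out 0 and those of the other genes cross it, before any adjustment for the number of genes.

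The promoter-side sequences of Abcf1 and of the 3 eIF3 genes are given because these are the Abcf gene and the eIF3 genes with an unadjusted p under 0.05 and because the study is about TFII-I and the insulator protein CTCF at promoters. Each is the 250 bases before the annotated start, on the gene's strand, from RefSeq (build GRCm38.p6, which serves for these sequences and is not tied to the array values). Capitals mark CCCTC, the word from which CTCF takes its name, on either strand, and CACGTG, an E-box of the kind bound by helix-loop-helix factors.
Abcf1, chr17:35969751-35970000, minus strand: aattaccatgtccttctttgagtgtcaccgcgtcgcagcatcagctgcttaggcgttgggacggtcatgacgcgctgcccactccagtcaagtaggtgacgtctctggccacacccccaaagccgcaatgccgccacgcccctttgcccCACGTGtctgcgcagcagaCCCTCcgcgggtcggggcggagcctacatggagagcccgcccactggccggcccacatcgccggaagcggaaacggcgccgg
Eif3b, chr5:140419055-140419304, plus strand: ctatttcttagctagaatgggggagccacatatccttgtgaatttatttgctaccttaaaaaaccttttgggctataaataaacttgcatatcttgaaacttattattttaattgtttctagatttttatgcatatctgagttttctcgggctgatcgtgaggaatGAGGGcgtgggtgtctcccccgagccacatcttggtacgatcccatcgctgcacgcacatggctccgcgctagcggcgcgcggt
Eif3c, chr7:126566367-126566616, minus strand: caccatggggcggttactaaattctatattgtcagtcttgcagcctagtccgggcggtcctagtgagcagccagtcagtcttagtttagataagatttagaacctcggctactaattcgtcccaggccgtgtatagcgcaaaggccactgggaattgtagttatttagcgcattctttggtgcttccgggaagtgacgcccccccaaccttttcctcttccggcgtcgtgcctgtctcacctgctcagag
Eif3l, chr15:79074973-79075222, plus strand: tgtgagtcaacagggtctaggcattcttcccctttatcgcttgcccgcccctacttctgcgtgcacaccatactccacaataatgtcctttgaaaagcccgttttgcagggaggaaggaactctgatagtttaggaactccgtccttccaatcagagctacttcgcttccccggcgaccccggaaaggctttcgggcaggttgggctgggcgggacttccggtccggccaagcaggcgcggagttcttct
The Abcf1 sequence holds 1 CACGTG and 1 CCCTC, the Eif3b sequence holds 1 GAGGG, the same word on the other strand, and those of Eif3c and Eif3l hold neither. Eif4enif1, the remaining gene at that level, has 4 annotated starts and is not printed, and 2 of its 4 sequences hold CCCTC. Among 27025 genes with 1 such window each, 59.7% hold CCCTC and 6.05% hold CACGTG, so the shorter word is common. Of 29 tested initiation factor and Abcf genes with a window, 15 hold CCCTC (51.7%) and 5 hold CACGTG (17.2%). The wider E-box form CANNTG, where N is any base, is held by 16 of the 29 (55.2%) and by 66.0% of the 27025. The 27025 genes are not limited to those tested here. All these counts are matches of letters and no measure of binding.

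Abcf1 had the lower level in all 3 shTFII-I arrays and a very small spread in both groups. Its brightest probe, ILMN_2768926, read 10.88, 10.91 and 10.93 in shCT and 10.19, 10.10 and 10.16 in shTFII-I cells. The groups were far apart relative to their SDs of 0.03 and 0.04 (n = 3 each). The difference was -0.76 ± 0.11 (log2, SE), or 1.69-fold lower, with a 95% interval from -1.02 to -0.49 and an adjusted p of 0.255 in limma. That adjusted p ran from 0.084 to 0.718 over the other settings tried.

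The 2 dimmer probes named for Abcf1 did not show this difference. Probe ILMN_2760415 read 7.97, 7.90 and 7.89 in shCT and 7.88, 8.30 and 8.21 in shTFII-I cells, a difference of 0.21 ± 0.14 (log2, SE) in the other direction. Probe ILMN_2693594 read 8.30, 7.58 and 7.87 in shCT and 7.92, 7.44 and 7.70 in shTFII-I cells, a difference of -0.23 ± 0.21. Both had overlapping groups. All 3 probes carry the same transcript accession in the platform annotation, and the mean of the 3 differed by -0.26 (adjusted p = 0.718 in limma). The value for the gene thus depended on the probe by more than its error.

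The other members of the family lay on the same side in the mean, with wider spread. Abcf2, a relative of the yeast ribosome biogenesis factor Arb1, read 10.81, 10.58 and 10.27 in shCT and 10.29, 10.51 and 9.75 in shTFII-I cells on its brightest probe. The groups overlapped, and the difference was -0.37 ± 0.23 (log2, SE), or -0.15 without the third shTFII-I array. Its 4 probes all had negative differences, from -0.37 to -0.02. Abcf3, a relative of yeast Gcn20, read 7.88, 7.91 and 8.0 in shCT and 8.15, 7.71 and 7.22 in shTFII-I cells. Its shTFII-I arrays lay on both sides of the shCT arrays, and the difference was -0.23 ± 0.23. Without the third shTFII-I array the Abcf3 difference was 0.00173. A dim second Abcf3 probe, at 6.47 to 6.63 over all arrays, differed by -0.03.

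**Figure D2:**
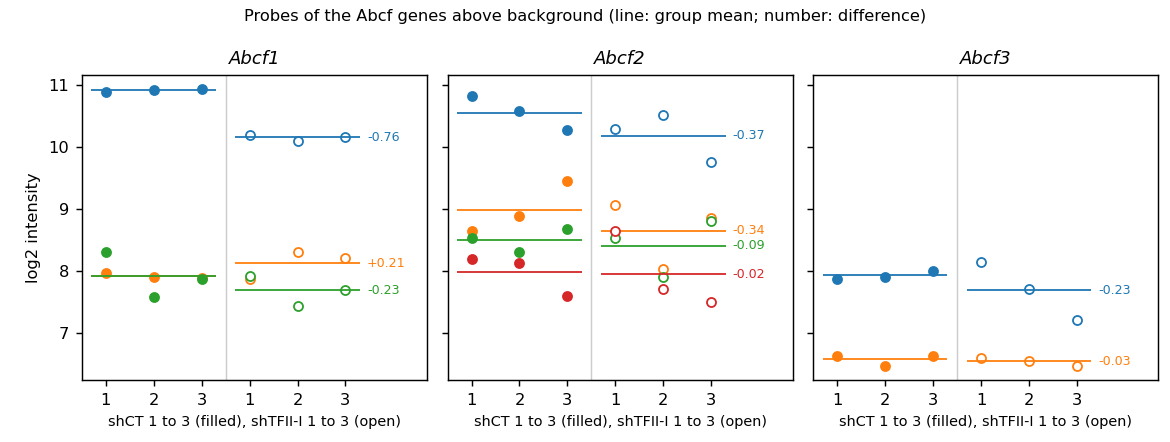
Log2 intensity (vertical axis) of every probe of Abcf1, Abcf2 and Abcf3 above background in at least 3 arrays, by array, with 1 colour a probe within a panel, filled circles for shCT and open circles for shTFII-I. Only the brightest Abcf1 probe has groups that do not overlap, with a difference of -0.76, and the other 2 Abcf1 probes differ by 0.21 and -0.23.

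The scaffold eIF3 held the largest differences among the initiation factors proper. Of its 12 genes on the array 8 were tested, 5 higher and 3 lower in the mean, with a median difference of 0.11. Eif3l, one of the subunits with a PCI domain, read 11.05, 11.53 and 10.76 in shCT and 11.50, 12.15 and 12.01 in shTFII-I cells. The first shTFII-I array lay just under the second shCT array, and the difference was 0.77 ± 0.25 (log2, SE), or 1.71-fold, with an adjusted p of 0.645 in limma.

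Eif3c, a core subunit that contacts other initiation factors, read 7.98, 8.24 and 7.49 in shCT and 8.59, 8.63 and 8.31 in shTFII-I cells. All shTFII-I arrays lay above all shCT arrays, and the difference was 0.61 ± 0.21 (adjusted p = 0.692 in limma). Eif3b, the core subunit that anchors the small subunits Eif3i and Eif3g, read 9.97, 9.98 and 9.03 in shCT and 10.27, 10.15 and 10.62 in shTFII-I cells. The groups were apart, by 0.68 ± 0.28 (adjusted p = 0.732 in limma). The third shCT array was the lowest of all 6 for each of these 3 genes. Without it the differences were 0.60 for Eif3l, 0.40 for Eif3c and 0.37 for Eif3b.

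Of the second probes only that of Eif3l was well above background, and it did not share the difference. That of Eif3l read 10.42, 11.79 and 11.49 in shCT and 11.41, 10.89 and 11.32 in shTFII-I cells, a difference of -0.03 ± 0.35 (log2, SE). That of Eif3c lay near background, where such a difference could not be seen, and differed by -0.01. The second Eif3b probe was above background in 2 arrays, both of shTFII-I cells, and was not tested. It read 6.52, 6.48 and 6.58 in shCT and 6.73, 7.0 and 6.54 in shTFII-I cells. Its difference of 0.23 ± 0.11 had the same direction as the first, but these values lie near background and are no check of it.

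The remaining eIF3 subunits differed by less than 1.5 times their errors. Eif3f and Eif3i, both bright, differed by -0.26 ± 0.20 and -0.12 ± 0.30 (log2, SE), and the cap-binding subunit gene Eif3d by 0.21 ± 0.24. Eif3a, the largest scaffold subunit, differed by -0.05 ± 0.29 and Eif3k by 0.02 ± 0.26. The 3 Eif3i probes went both ways, from -0.12 to 0.19. Eif3e, Eif3h, Eif3j1 and Eif3m were not measurable, with no probe above background in more than 2 arrays.

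**Figure D3:**
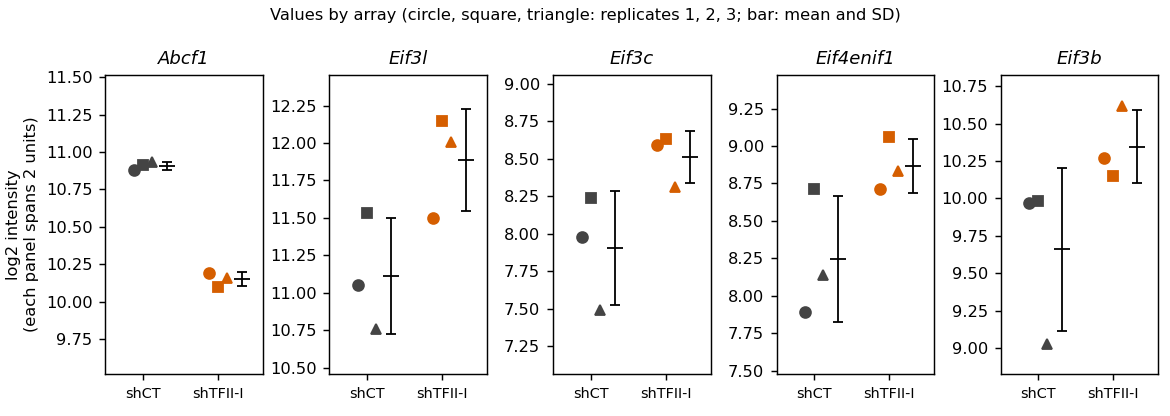
Log2 intensity (vertical axis, each panel spanning 2 units) in every array for the 5 genes with an unadjusted limma p under 0.05, brightest probe, with the mean and SD of each group (n = 3) as the bar. Abcf1 is tight in both groups, whereas the third shCT array is the lowest point for Eif3l, Eif3c and Eif3b.

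Genes of eIF4F and eIF4B were grouped with those of their partners and relatives, and 3 of 7 tested were higher and 4 lower in the mean, with a median of -0.06. Of eIF4F itself the group held the helicase genes Eif4a1 and Eif4a2, while Eif4e and Eif4g3 were not measurable. Eif4enif1 encodes 4E-T, which carries eIF4E into the nucleus and holds it in silenced messages, and it read 7.89, 8.71 and 8.14 in shCT and 8.71, 9.06 and 8.83 in shTFII-I cells. The groups just failed to overlap, with the closest arrays equal at this rounding. The difference was 0.62 ± 0.23 (log2, SE), with an adjusted p of 0.698 in limma, and 0.05 ± 0.22 on the second probe.

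The probes of Eif4e2, the gene of the cap-binding repressor 4EHP, disagreed in sign. The brightest read 10.46, 10.06 and 9.21 in shCT and 10.32, 11.04 and 9.97 in shTFII-I cells, a difference of 0.53 ± 0.38 (log2, SE) with overlapping groups. It was 0.18 without the third shCT array, 0.23 without the second shTFII-I array and up to 0.81 without others. A second probe, annotated to another transcript accession, differed by 0.31 ± 0.16, with the groups apart. The third read 7.78, 7.48 and 7.61 in shCT and 7.35, 7.16 and 7.31 in shTFII-I cells, a difference of -0.35 ± 0.13 with the groups apart the other way. Over all probes tested in limma the third had an unadjusted p of 0.0293 and an adjusted p of 0.725.

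Helicase and scaffold genes of this group had mean differences close to 0, with 95% intervals as wide as -0.62 to 0.88 for Eif4a2. Eif4a1, the main helicase, differed by -0.07 ± 0.19 (log2, SE), its relative Eif4a2 by 0.13 ± 0.32, and Eif4g2, a scaffold that cannot bind eIF4E, by -0.06 ± 0.15. Eif4b, which stimulates the helicase, differed by -0.20 ± 0.16 and the cap-binding relative Eif4e3 by -0.20 ± 0.13. Eif4a3, a helicase of the exon junction complex and not of initiation, read 10.67, 10.67 and 10.79 in shCT and 10.24, 10.59 and 11.07 in shTFII-I cells. The shTFII-I arrays lay on both sides of the others, and the difference was -0.07 ± 0.21. The probe of Eif4e itself was above background in 1 array, and Eif4e1b and Eif4g3 were not measurable either. Eif4g1 was not analysed here.

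Genes of eIF2 were lower in the mean in both tested cases, with wide intervals. Eif2s2, the beta subunit, read 9.36, 9.68 and 9.57 in shCT and 9.57, 8.45 and 9.44 in shTFII-I cells on its brightest probe. Only the second shTFII-I array stood low, and the difference was -0.38 ± 0.29 (log2, SE), or -0.03 without that array. Its second probe read 8.46, 8.18 and 7.85 in shCT and 7.80, 7.0 and 7.50 in shTFII-I cells, with the groups apart by -0.73 ± 0.24. The unadjusted p of that probe was 0.0195 and its adjusted p 0.687 over all probes tested in limma. Eif2s3x, the gamma subunit, differed by -0.32 ± 0.38, and 0.11 without the third shTFII-I array. The Y-linked copy Eif2s3y and the pseudogene Eif2s3x-ps1 were not measurable, and Eif2s1, the alpha subunit, was not analysed here.

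The exchange factor eIF2B, whose 5 subunit genes were all tested, was split 3 higher to 2 lower with a median difference of 0.05. Eif2b2 read 8.89, 9.17 and 8.93 in shCT and 9.02, 9.50 and 9.50 in shTFII-I cells, a difference of 0.35 ± 0.18 (log2, SE) with overlapping groups. Eif2b5, the catalytic subunit, read 10.68, 10.37 and 9.55 in shCT and 10.72, 10.40 and 10.56 in shTFII-I cells. Its groups lay together apart from the third shCT array, which was low, and the difference was 0.36 ± 0.28, or 0.04 without that array, with 0.10 and -0.05 on its other probes. Eif2b3 differed by -0.16 ± 0.21, Eif2b1 by 0.05 ± 0.26 and Eif2b4 by -0.04 ± 0.31.

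Factors that can deliver tRNA without eIF2 had mean differences of opposite sign, with 95% intervals that both crossed 0. Eif2a read 10.69, 10.60 and 9.51 in shCT and 10.54, 10.46 and 10.86 in shTFII-I cells, a difference of 0.36 ± 0.32 (log2, SE) that was -0.02 without the third shCT array. Eif2d, also known as ligatin, differed by -0.27 ± 0.16.

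Start-codon factors of the eIF1 and eIF1A kind showed differences of moderate size with wide intervals. Eif1b, a relative of the start-codon selection factor eIF1, read 7.44, 8.14 and 7.48 in shCT and 8.13, 7.82 and 8.93 in shTFII-I cells. The groups overlapped, and the difference was 0.61 ± 0.32 (log2, SE, adjusted p = 0.791 in limma). It ran from 0.29 to 0.85 with 1 array left out, the lowest without the third shTFII-I array. Eif1a, which promotes scanning, read 9.62, 9.40 and 8.62 in shCT and 9.35, 8.67 and 8.41 in shTFII-I cells, a difference of -0.40 ± 0.33 that ran from -0.70 to -0.20 in the same way. Eif1ax was not measurable and Eif1 was not analysed here.

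Eif1ad, which encodes a protein with an eIF1A-like domain that acts in ribosome maturation, was lower in the mean on every probe by 0.30 or more. Its 3 probes differed by -0.45 ± 0.29, -0.30 ± 0.22 and -0.45 ± 0.15 (log2, SE). The brightest read 9.45, 8.82 and 8.76 in shCT and 8.70, 8.97 and 8.01 in shTFII-I cells, with overlap, and its difference was -0.17 without the third shTFII-I array and -0.23 without the first shCT array. The third probe read 8.11, 7.63 and 7.91 in shCT and 7.43, 7.48 and 7.38 in shTFII-I cells, with the groups apart. It had an unadjusted p of 0.0173 and an adjusted p of 0.661 over all probes tested in limma, and the mean of the 3 probes differed by -0.40 (adjusted p = 0.730).

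Late-acting factors had small mean differences, with 95% intervals that also hold larger ones, such as -0.89 to 0.38 for Eif5a. Eif5, which triggers GTP hydrolysis on eIF2, read 11.52, 11.71 and 11.38 in shCT and 11.29, 10.92 and 11.77 in shTFII-I cells. Its groups overlapped, and the difference was -0.21 ± 0.23 (log2, SE), with 0.13 and -0.07 on its other probes. Without the third shTFII-I array it was -0.43, and without the second -0.01. Eif5b, the factor for subunit joining, was barely above background, in 3 arrays at 6.64 to 6.68, and differed by -0.09 ± 0.12. Eif6, which keeps the large ribosomal subunit apart, differed by -0.08 ± 0.24. Eif5a, now known mostly for elongation, read 11.66, 11.63 and 11.81 in shCT and 11.70, 10.80 and 11.84 in shTFII-I cells. Only the second shTFII-I array stood low, the difference was -0.25 ± 0.27, and its 3 probes differed by -0.25 to -0.07. Without that array it was 0.07. Its relative Eif5a2 was not measurable.

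Agreement between probes was limited across the set. Of the 35 genes 20 had more than 1 probe above background, and the brightest and next brightest probes had the same sign in 13 of them, or 65.0%. Over all 2457 genes with more than 1 such probe the share was 55.5%. All probes of a gene shared a sign in 10 of 20 genes here and in 46.9% of all such genes. Among the genes with a probe over 0.3 in size, Abcf2, Eif1ad, Eif2s2 and Eif4enif1 had probes of 1 sign, and Abcf1, Eif2b5, Eif3c, Eif3l and Eif4e2 had probes of both. Some of these signs come from differences well within their errors of 0. These include 1 probe each of Abcf2 (-0.02 ± 0.31), Eif4enif1 (0.05 ± 0.22), Eif2b5 (-0.05 ± 0.31), Eif3c (-0.01 ± 0.11) and Eif3l (-0.03 ± 0.35).

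**Figure D4:**
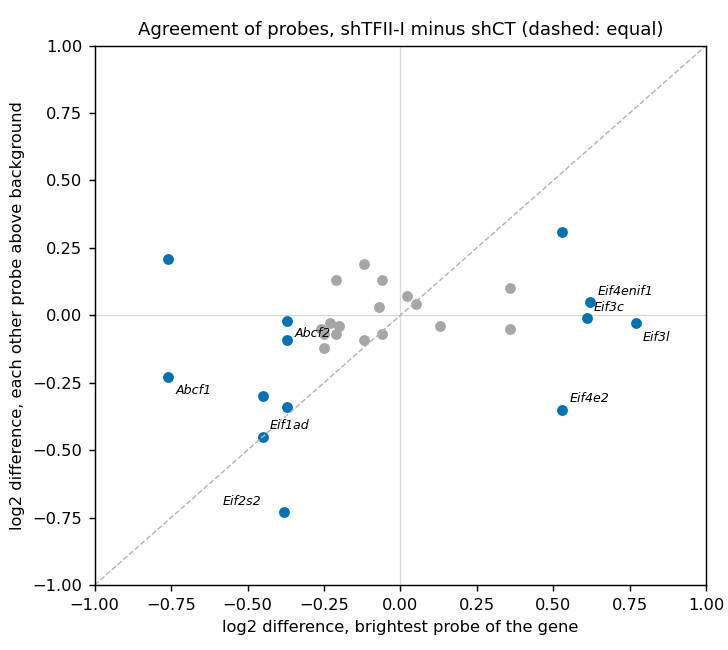
Log2 difference of the brightest probe of a gene (horizontal axis) against that of each of its other probes above background (vertical axis), 1 point for each other probe, for the 20 genes with more than 1. Probes of Eif1ad and Eif2s2 lie low on both axes, while those of Eif3l, Eif3c and Eif4enif1 lie near 0 on the vertical axis and 1 Abcf1 probe lies above it.

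The spread between replicates was wide for these genes, and whether their level bears on this was not tested. Their median SD (log2) was 0.27 in shCT and 0.39 in shTFII-I arrays, against 0.18 and 0.21 over all genes, and a 95% interval extended by a median of 0.57 to each side against 0.41. The third shTFII-I array held the lowest value for 10 of the 35 genes and the highest for 8. The second shTFII-I array held the lowest for 7 and the highest for 10. The third shCT array held the lowest for 9 and the highest for 5, and the second shCT array the lowest for 0. In the third shTFII-I array the median deviation from a gene's mean was -0.11 for these genes and 0.01 over all genes. Without that array the median difference of the 35 genes was 0.001 in place of -0.07.

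Other genes of the translation pathway were taken in 4 lists. These held repressors and kinases, helpers of initiation, elongation factors, and termination and rescue factors. Of 44 tested, 22 were higher and 22 lower in the mean, 0 passed limma's adjusted test (0.0% of all genes) and 5 had an unadjusted p under 0.05, against 6.63% of all genes tested. The groups did not overlap in 7 of the 44, against 11.9% of all genes. Both counts, of 5 and of 7 genes, were a larger share of the 44 than the share over all genes. Whether the lists differ from all genes in this was not tested, and they were chosen with earlier results of these data known. Eif4ebp2, a repressor that sequesters eIF4E, read 7.57, 7.60 and 7.85 in shCT and 8.56, 8.39 and 7.96 in shTFII-I cells. Its groups were apart, by 0.63 ± 0.19 (log2, SE, adjusted p = 0.628 in limma).

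Pabpc4, a poly(A)-binding protein, read 10.78, 11.16 and 10.56 in shCT and 11.54, 11.90 and 11.27 in shTFII-I cells, apart by 0.73 ± 0.22 (log2, SE) but by -0.06 on its second probe. Paip2b, an inhibitor of poly(A)-binding proteins, read 9.13, 9.41 and 9.5 in shCT and 9.59, 10.02 and 9.72 in shTFII-I cells. Its groups were apart, by 0.43 ± 0.17, and by 0.13 on its second probe. The elongation factor gene Eef1d read 12.46, 11.82 and 11.84 in shCT and 11.85, 11.07 and 11.11 in shTFII-I cells. The first shTFII-I array reached the shCT range, and the difference was -0.70 ± 0.27, with -0.41 ± 0.17 on the second probe. The ribosome rescue GTPase gene Gtpbp2 read 8.23, 7.73 and 8.15 in shCT and 7.59, 7.46 and 7.73 in shTFII-I cells. Its groups just failed to overlap, with equal closest values at this rounding, and differed by -0.44 ± 0.17. Adjusted p for these 4 genes ran from 0.628 to 0.727 in limma.

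By position, 9 of the 29 tested genes with a RefSeq promoter window had the start of another gene on the other strand within 1000 bases, and 5 of these partners were tested. Eif1ad shares such a region with Banf1, which encodes a chromatin-binding protein of the nuclear envelope, with 63 bases between the starts. Banf1 read 11.45, 11.36 and 11.46 in shCT and 10.65, 10.90 and 10.69 in shTFII-I cells on its brightest probe. The groups were apart, by -0.68 ± 0.13 (log2, SE, adjusted p = 0.365 in limma), but its other 3 probes differed by -0.04, 0.17 and 0.15. Eif2a shares its region with Serp1, a stress-associated membrane protein gene, which differed by 0.53 ± 0.23 where Eif2a differed by 0.36. Without the third shCT array the values were 0.32 for Serp1 and -0.02 for Eif2a. The partners of Eif2b1, Eif2b4 and Eif3k (Gtf2h3, Snx17 and Map4k1) differed by -0.09, -0.15 and -0.38, all within 1.5 times their errors, and that of Map4k1 ran from -0.69 to -0.16 with 1 array left out. Abcf1 has a predicted gene, Gm32655, 35 bases away on the other strand, which was not tested.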

How the data were processed

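The authors deposited log2 intensities of 45281 probes, which share 1 distribution over the 6 arrays (sorted values differ by at most 0.0012), so they had been quantile normalized. The submitters' processing notes name limma alone, and whether background was corrected is not given there. Another deposited table holds 12 columns whose headings match no sample, and it was not used.

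The background level was set from the mode of all values, 6.45, by mirroring the values below it, so that 1% of the background exceeds 6.61. Probes above it in at least 3 arrays (12157) were kept, named by the platform annotation (34885 probes with 1 symbol, 18 with several, 10378 with none) and updated by Entrez ID to GRCm38.p6 symbols (34807 matched). Groups were compared with limma 3.58.1 in R 4.3.3 (constant prior variance) on the brightest probe of each gene, adjusted over 7225 genes. Probe values come from the same model on all probes kept. The SE of the second Eif3b probe, which was not kept, comes from a fit on all 45281 probes. The model was also run on 20 simulated sets of independent normal values with 200 changed genes each. The outcome is not given here, so how large a difference would pass is not stated.

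Members, lists and tests were chosen with earlier results of these data known. Values by array are given for the Abcf genes, genes with an unadjusted p under 0.05, the largest difference in each complex and genes whose probes differ in sign with 1 over 0.3 in size, and Eif2b2, Eif1a and Eif1ad were added after their values were seen. From the lists of repressors, elongation and termination, up to 4 genes of smallest p could be named, and Pabpc4, Paip2b and the neighbouring genes were named after their values were seen. An exact permutation of 3 against 3 arrays has 0.1 as its smallest two-sided p. Alternatives covered the prior, array weights, normexp background correction with an offset of 16, the filter, the background level, the mean of probes, a replicate block and leaving out arrays in turn.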

Additional observations from a re-analysis of the deposited data

How the results depend on the processing

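Changes of the prior, the filter or the background level, and the replicate block, left the differences of these genes as reported. Those settings could therefore not change a direction, nor could the mean of the probes for a gene with 1 probe. Of the 35 genes, 18 kept the direction of their difference in all 14 other settings. The same held for 5 of the 5 named genes of the pathway lists. Eif5b kept its direction in the 13 settings it was in, since it was not above background in all 6 arrays. Of these 19 genes, 14 moved by over 1.5 times when 1 array was left out, and Abcf1, Eif2b2, Eif3l, Eif4e3 and Eif4enif1 did not. Other settings did move those 5 genes by over 1.5 times. With the mean of the probes the difference was 0.37 for Eif3l, 0.33 for Eif4enif1 and -0.12 for Eif4e3. With array weights it was 0.2 for Eif2b2. The difference of Abcf1 ran from -0.79 to -0.26, the last being the mean of its probes. The number of all genes past an adjusted p of 0.05 was 0 as reported, 6 with a trended and robust prior, 5 with normexp background correction and 0 with each array left out. None of the 35 genes was among them in any setting. The number of the 35 genes with an unadjusted p under 0.05, 5 as reported, was 2 with array weights (Abcf1 and Eif3c), 2 with the mean of the probes (Abcf1 and Eif3b), and 1 to 6 with an array left out, the 1 without the third shCT array. It was 3 without the second shTFII-I array. Their median difference was -0.13 to 0.001 with an array left out. With array weights Eif2b1 changed sign to -0.07, Eif2b4 to 0.04 and Eif3k to -0.11. Leaving out 1 array at a time changed the sign of 17 differences. Their ranges were -0.46 to 0.00173 for Abcf3, -0.02 to 0.57 for Eif2a, -0.25 to 0.27 for Eif2b1, -0.38 to 0.02 for Eif2b3, -0.26 to 0.28 for Eif2b4 and -0.66 to 0.11 for Eif2s3x. For eIF3 they were -0.23 to 0.29 for Eif3a, -0.00291 to 0.45 for Eif3d, -0.42 to 0.17 for Eif3i and -0.22 to 0.18 for Eif3k. For the others they were -0.25 to 0.07 for Eif4a1, -0.16 to 0.37 for Eif4a2, -0.29 to 0.12 for Eif4a3, -0.16 to 0.02 for Eif4g2, -0.45 to 0.07 for Eif5a, -0.25 to 0.18 for Eif6 and -0.32 to 0.03 for Snx17. The cause was not tested. With no filter, 1011 of 19057 genes had an unadjusted p under 0.05, more genes being tested. Same-numbered arrays of the 2 groups correlated at -0.0138, 0.00324 and 0.1 in their deviations, and differently numbered arrays at -0.111 to 0.13. With 3 arrays a group these values cannot tell whether the numbers pair the arrays. With the replicate block 4 of the 35 genes had an unadjusted p under 0.05 and Abcf1 an adjusted p of 0.553 in limma. The limma unadjusted p was smaller with the block than without it for Eif3c, Eif4enif1 and Eif3l, and larger for Abcf1. Over all genes 511 were under 0.05 with the block, in place of 479. Signal limits what can be read for genes near the background level, such as Eif5b, and 11 genes of the set could not be tested.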
